A study of Mus musculus with 26 samples.

Results

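Libraries labelled monocytes, sorted from the lungs of propranolol-treated mice, were compared with those of untreated mice across all genes. These were 4 libraries against 4, which are 8 of the 26 libraries of the series. The label is used as given, and these libraries also held transcripts of other cells, described below. All mice were of the C57BL/6 strain and carried lung metastases of B16F10, a mouse melanoma line given into a vein. The treated group received propranolol and the control group received no drug. Dose, schedule, age of the animals and the markers of the sort are not given in the sources used here, and the labels do not say whether each library came from a separate animal or from a pool. The p-values therefore measure the spread between these libraries, which may be partly technical. The 10 whole lung libraries of the same study (5 propranolol, 5 control) served as the yardstick for which transcripts stood higher in the sorted libraries.

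Propranolol blocks β-adrenoceptors, the receptors through which adrenaline and noradrenaline raise cyclic AMP in their target cells. Classical monocytes are recruited from blood by chemokines acting on Ccr2, while non-classical monocytes patrol the lumen of small vessels, which are dense in the lung, and depend on the integrin Itgal for crawling. Both can take up tumour material that lodges in lung capillaries.

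Total counts ran from 36277687 to 46407803 in propranolol and from 36371431 to 48306925 in control monocyte libraries, and from 29650148 to 43447855 in propranolol and from 33232082 to 47618634 in control whole lung. Within each group, replicates 1 and 2 resembled each other, as did replicates 3 and 4. Chi-square per degree of freedom, computed on genes averaging 50 or more counts, was 3.52 to 5.2 for these 4 close pairs. It was 12.1 to 35.5 for the 8 other pairs within a group and 56.8 to 84.9 for the 16 pairs between groups. No pair agreed within sampling noise, but that does not show that the libraries of a close pair are independent samples. Each library was counted as 1 sample, and p-values from 4 against 4 may be too small if close pairs share a source. Results are also given with the close pairs summed, 2 against 2, an alternative chosen after the data had been seen.

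Of 18236 genes tested, 2614 (14.3%) were higher and 2939 (16.1%) were lower with propranolol at an adjusted p under 0.05, 5553 (30.5%) in all. With close pairs summed, 409 (1.98%) were higher and 968 (4.69%) were lower of 20638 tested, 6.67% in all. Counts of list members given below are to be read beside these shares of all tested genes. Most changes were small. Past 2-fold stood 314 called genes (1.72%) on the higher side and 130 (0.713%) on the lower side, and the median log2 change over all genes was 0.02. The split depended on scaling: when libraries were scaled on the sort-enriched genes alone (defined below), 872 were higher and 3072 lower.

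The 3 monocyte marker genes chosen here, Csf1r, Cd14 and Ccr2, were present in every library. The markers of the sort itself are not given. Csf1r, the receptor for the growth factor that maintains monocytes and macrophages, stood at 501, 524, 643 and 675 CPM (counts per gene scaled to a common library total, with TMM factors) with propranolol, against 527, 506, 429 and 403 CPM in controls. Its log2 change was 0.33 ± 0.11 (SE, adjusted p = 0.0427), or 0.281 as the adjusted p with close pairs summed. Propranolol replicates 3 and 4 were the highest and control replicates 3 and 4 the lowest, and replicates 1 and 2 of both groups overlapped. Cd14, the co-receptor for bacterial lipopolysaccharide, stood at 573, 592, 696 and 692 CPM with propranolol, against 782, 731, 631 and 601 CPM in controls (log2 change −0.10 ± 0.09, adjusted p = 0.422). The chemokine receptor Ccr2 stood at 101.8, 97.3, 118 and 121 CPM, against 109, 99.8, 91.8 and 83.0 CPM in controls (0.19 ± 0.09, adjusted p = 0.136). Neither passed the test, and for both the groups overlapped.

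The level of each gene relative to whole lung was taken as plain CPM averaged over both treatments. It separated transcripts higher in the monocyte libraries from those at the level of lung tissue. The median ratio over all tested genes was 0.853, with the 10th percentile at 0.456 and the 90th at 1.88. A ratio of at least 4 was met by 644 genes (3.53%), called sort-enriched here; 5475 (30%) lay between 1 and 4 and are called intermediate; 12117 (66.4%) were at or below 1 and are called lung-level. Fcer1g, the signalling chain of Fc receptors, lay just inside the upper limit (4.22) and Csf1r just outside it (3.94), while Cd14 stood at 28.2 and Ccr2 at 1.91. Sort-enriched genes took 4.66% to 5.01% of counts in propranolol and 4.31% to 4.43% in control monocyte libraries. In whole lung they took 0.643% to 0.820% with propranolol and 0.422% to 0.584% in controls. Lung-level genes still took 46.2% to 47.0% of counts in propranolol and 45.7% to 46.4% in control monocyte libraries. Sort-enriched is therefore a measured class and not a list of monocyte genes. The name does not say that the sort raised them, and all 10 thymocyte genes described below are in it. Of its 644 genes, 104 are in the myeloid lists used here and 25 are in lymphocyte or thymocyte lists. Lists of lung-resident, basal epithelial or venule cells hold 11, and 481 are in no list.

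**Figure D1:**
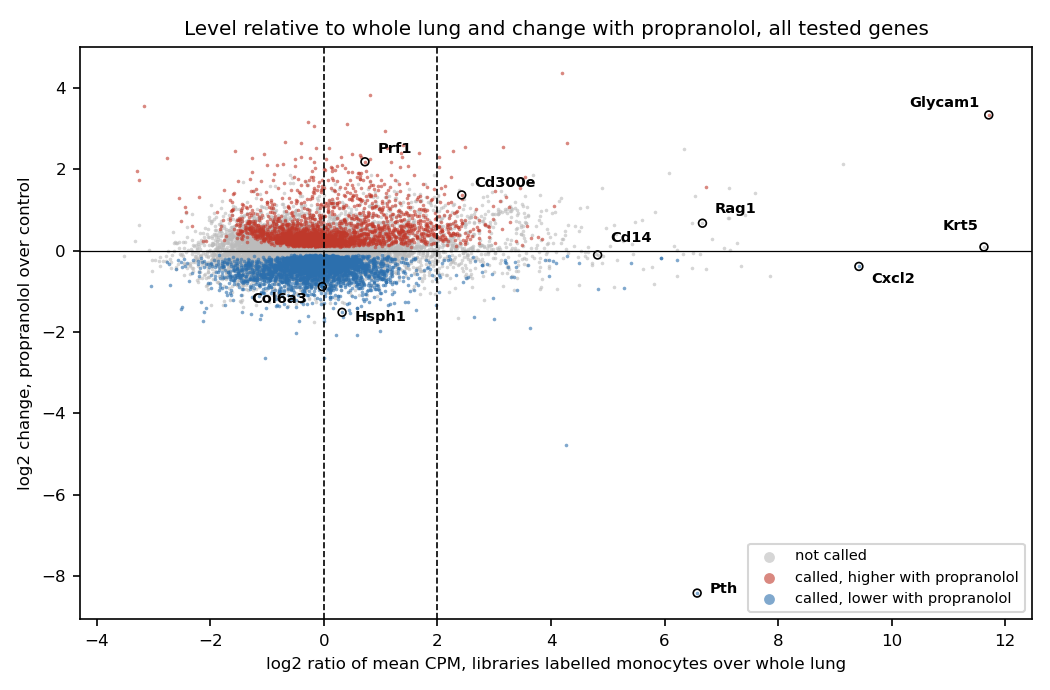
Each point is 1 of 18236 tested genes; the x axis is the log2 ratio of plain CPM in monocyte libraries over whole lung, the y axis is the log2 change with propranolol over control, and dashed lines mark ratios of 1 and 4. Points to the right of the line at 4 (644 genes) lie more often above 0 than below it, with a median log2 change of 0.25.

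Of the 644 sort-enriched genes, 125 (19.4%) were higher and 49 (7.61%) lower with propranolol, with a median log2 change of 0.25 against 0.02 over all tested genes, and 29 rose and 7 fell by more than 2-fold. With close pairs summed the counts were 40 and 6. Intermediate genes split 1011 (18.5%) higher to 1103 (20.1%) lower, 38.6% in all, with a median of 0.03, and lung-level genes split 1478 (12.2%) to 1787 (14.7%), with a median of 0.01. This direction did not hold at a stricter class limit: with a ratio of at least 8, 22 were higher and 28 lower of 260. Scaling on the class alone gave 76 higher and 64 lower. Such scaling centres the class itself, so it cannot test the direction of the class. The class also depends on which libraries set it: with ratios from untreated libraries alone 254 were higher and 140 lower of 1206, and from treated libraries alone 108 were higher and 37 lower of 547.

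Among sort-enriched genes that rose, the 5 with the smallest p-values encode surface proteins of monocytes, of lymphocytes or of both. Cd300e, an activating receptor carried by monocytes, stood at 48.4, 48.2, 53.6 and 54.8 CPM with propranolol, against 19.8, 19.9, 18.6 and 20.8 CPM in controls, a log2 change of 1.37 ± 0.06 (SE, adjusted p = 2.72e-07, 0.0103 with close pairs summed). All propranolol libraries were at more than the highest control, and the spread within each group was small. Itgal, the α chain of the integrin LFA-1, stood at 563, 559, 576 and 572 CPM, against 369, 367, 381 and 375 CPM in controls (0.61 ± 0.03, adjusted p = 5.58e-07). Spn, the sialoglycoprotein CD43 that is high on non-classical monocytes and on T cells, stood at 211, 211, 242 and 236 CPM, against 127, 121, 123 and 119 CPM (0.88 ± 0.05, adjusted p = 1.04e-06). S1pr5, a sphingosine phosphate receptor needed for egress of natural killer cells and of patrolling monocytes, stood at 37.8, 37.4, 42.5 and 45.2 CPM, against 18.6, 17.7, 19.2 and 16.3 CPM (1.18 ± 0.08, adjusted p = 1.91e-06). For these 3 genes too the groups did not overlap. Smpdl3b, a membrane phosphodiesterase of macrophages, stood at 46.7, 49.6, 46.9 and 50.9 CPM, against 25.8, 26.0, 24.4 and 21.7 CPM in controls (0.99 ± 0.07, adjusted p = 1.91e-06).

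Whole lung gave a yardstick for these changes. Cd300e changed by 1.10 log2 in lung and the difference between monocyte and lung libraries was 0.27 (adjusted p = 0.557). Smpdl3b changed by 0.15 log2 in lung (adjusted p = 0.216), and its change was 0.83 log2 more positive in the monocyte libraries (adjusted p = 0.000247). For Itgal the monocyte change was 0.87 log2 below that of lung (adjusted p = 0.0229). Across 20328 genes fitted jointly, 57.4% differed in change between the 2 kinds of material, so such a difference was common.

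Among sort-enriched genes that fell, 5 were named by the smallest p-values: Cxcl2, Nfkbiz, Lilr4b, Cd209a and Dusp1. Cxcl2, a chemokine that draws neutrophils, had a ratio to lung of 686 and stood at 256, 239, 256 and 255 CPM with propranolol, against 330, 320, 325 and 339 CPM in controls, a log2 change of −0.39 ± 0.04 (adjusted p = 2.66e-05, 0.0323 with close pairs summed). Nfkbiz, an atypical IκB that tunes NF-κB target genes, stood at 247, 249, 272 and 269 CPM, against 368, 352, 326 and 327 CPM (−0.41 ± 0.05, adjusted p = 0.000178). For both genes all propranolol libraries were below all controls. Lilr4b, an inhibitory immunoglobulin-like receptor of myeloid cells, stood at 126, 121, 129 and 128 CPM, against 158, 162, 165 and 179 CPM (−0.40 ± 0.04, adjusted p = 6.8e-05). Cd209a, a C-type lectin of dendritic cells and of monocytes that develop into them, stood at 27.8, 28.8, 31.9 and 31.5 CPM, against 48.7, 52.6, 47.8 and 43.1 CPM (−0.68 ± 0.07, adjusted p = 4.18e-05). Lilr4b and Cd209a changed upwards in whole lung, by 1.16 and 1.57 log2, and the difference from lung was −1.57 and −2.26 log2 (adjusted p = 0.000109 and 1.21e-05). The groups did not overlap for either gene in the monocyte libraries.

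**Figure D2:**
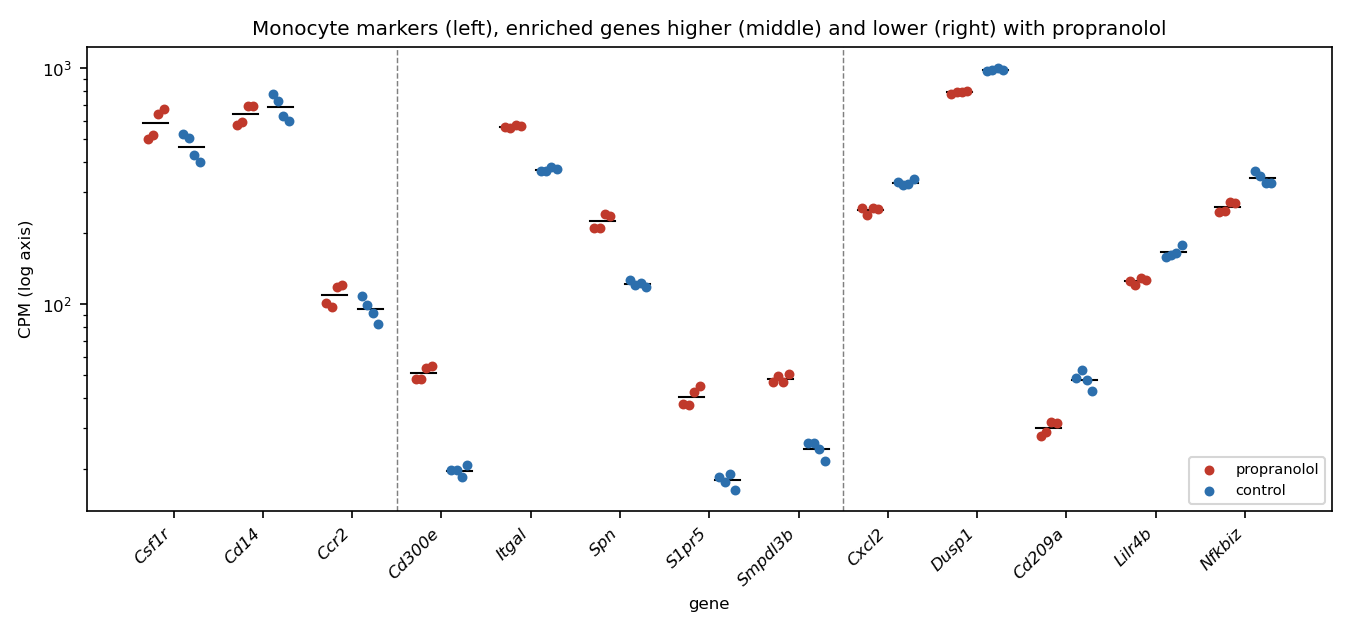
TMM-scaled CPM per library on a log axis for the 3 monocyte marker genes and for sort-enriched genes that rose or fell. Propranolol libraries are on the left of each pair, control libraries on the right. The markers Csf1r, Cd14 and Ccr2 overlap between the groups, Cd300e lies at 48.2 to 54.8 with propranolol and 18.6 to 20.8 in controls, and Cxcl2 at 239 to 256 and 320 to 339.

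The 2 monocyte subsets were described with lists of 17 genes each. Of the non-classical list 11 were higher and 2 lower, with a median log2 change of 0.46, and 8 and 0 passed with close pairs summed. Besides Itgal and Spn, Eno3, a muscle-type enolase that also marks this subset, stood at 45.3, 44.9, 49.9 and 53.7 CPM with propranolol, against 25.8, 23.2, 26.4 and 26.8 CPM in controls (0.92 ± 0.07), and Ear2, a ribonuclease of the eosinophil family, rose by 0.71 ± 0.07 log2 (adjusted p = 5.44e-06 and 1.63e-05). Members named after their values were seen were Treml4 (67.6 ± 7.83 and 37.7 ± 1.80 CPM, SD, n = 4 each, propranolol and control), Pou2f2 (124 ± 12.7 and 71.1 ± 7.96 CPM) and Adgre4 (138 ± 18.1 and 80.4 ± 6.52 CPM), which rose by 0.84, 0.81 and 0.78 log2. The nuclear receptor Nr4a1, on which this subset depends, did not pass (0.05 ± 0.05, adjusted p = 0.489), nor did the fractalkine receptor Cx3cr1 (0.37 ± 0.15, adjusted p = 0.0869). The summed level of the list was 5890 to 6390 CPM with propranolol and 5790 to 5860 CPM in controls. This and all other list sums are plain CPM, without TMM factors.

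Of the classical list 7 were higher and 1 lower, with a median of 0.19, and 5 and 0 with close pairs summed. Ly6c2, the surface antigen that defines this subset in the mouse, stood at 50.5, 52.7, 60.1 and 59.7 CPM with propranolol, against 35.4, 35.0, 34.8 and 33.0 CPM in controls (0.69 ± 0.06, adjusted p = 1.85e-05). Plac8, a lysosomal protein of interferon-primed monocytes, rose by 0.66 ± 0.05 log2 and Ms4a4c, a tetraspan protein, by 0.58 ± 0.09. The summed level overlapped, at 7230 to 8550 CPM with propranolol and 6510 to 8160 CPM in controls.

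Transcripts of natural killer cells and B cells moved with these lists. T cell genes (2 higher and 0 lower of 21) and neutrophil genes (1 higher and 4 lower of 17) are described further below. The natural killer and cytotoxic list was higher in 17 of 17 tested members, with a median log2 change of 1.90, and summed to 185 to 258 CPM with propranolol and 57.7 to 69.3 CPM in controls. Gzmb, a granzyme of cytotoxic cells, stood at 16.7, 14.7, 11.5 and 12.7 CPM, against 2.69, 2.97, 3.15 and 3.40 CPM, and Ccl5, a chemokine these cells secrete, at 37.6, 38.9, 31.9 and 29.8 CPM, against 10.15, 10.55, 10.01 and 9.85 CPM. In both, propranolol replicates 1 and 2 were above 3 and 4. The B cell list was higher in 17 of 17 (median 1.02) and summed to 1070 to 1210 CPM with propranolol and 440 to 750 CPM in controls. Cd22, a B cell inhibitory lectin, rose by 1.02 ± 0.08 log2. Itgal, Spn and S1pr5 are transcribed in natural killer cells as well, and the part of those cells in their change was not tested. In bulk libraries, more cells of a type and more RNA per cell cannot be told apart.

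Transcripts found in thymus split the libraries in another way. A list of 10 thymocyte genes, drawn up after the data had been seen, stood at a median ratio to lung of 40 and summed to 1402, 1189, 334 and 224 CPM with propranolol and 110, 261, 623 and 772 CPM in controls. Rag1, part of the recombinase of developing lymphocytes, stood at 416, 358, 85.9 and 51.7 CPM, against 29.9, 87.4, 203 and 248 CPM. Propranolol replicates 1 and 2 and control replicates 3 and 4 were the high ones, the groups overlapped, and none of the 10 genes passed (median log2 change 0.72). The T cell list followed the same libraries, with 2 of 21 higher, none lower and sums of 510 to 2320 CPM with propranolol and 252 to 1260 CPM in controls. With the mean thymocyte level as a covariate, 207 sort-enriched genes were higher and 99 lower. Lists of 4 further sources, also drawn up after the data had been seen, were examined. Thymic epithelium genes had a median ratio to lung of 38.6, and none of 5 passed. Their sums were 14.2 to 73.2 CPM with propranolol and 7.67 to 45.1 CPM in controls, with the same replicates high as for thymocytes. Of 7 genes of basal epithelium none passed either. Its keratin Krt5 stood at a ratio of 3159 to lung and at 14.3, 12.7, 6.56 and 5.74 CPM with propranolol and 8.81, 8.91, 9.40 and 9.54 CPM in controls. High endothelial venule genes were higher in 3 of 4. Their member Glycam1, a mucin-like ligand in lymph nodes, stood at 28.7, 31.0, 34.0 and 32.1 CPM with propranolol, against 4.35, 5.24, 2.12 and 0.906 CPM in controls (3.34 ± 0.37, adjusted p = 6.2e-05), and at a mean of 0.00523 CPM in whole lung. Both tested parathyroid genes, Chga and Pth, were lower, also with close pairs summed, at sums for the list of 0.302 to 0.504 CPM with propranolol and 0.77 to 7.0 CPM in controls.

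Lists of lung-resident cells leaned the other way. Of the endothelial list 0 were higher and 19 of 20 lower (median −0.46), with 14 lower with close pairs summed. The sums were 8940 to 8970 CPM with propranolol and 11700 to 12000 CPM in controls. All 20 endothelial genes were in the intermediate class, at a median ratio to lung of 1.86, where Ccr2 stood at 1.91. Calcrl, the receptor for adrenomedullin in endothelium, stood at 917, 922, 950 and 957 CPM, against 1605, 1525, 1429 and 1458 CPM, a log2 change of −0.68 ± 0.04 (adjusted p = 1.56e-06). Tie1, an endothelial receptor kinase, fell by 0.47 ± 0.03 log2. In whole lung Calcrl changed by 1.07 log2, and the monocyte minus lung difference was −1.76 (interaction test, adjusted p = 0.00119). Of the fibroblast and matrix list 17 of 22 were lower and 3 higher (median −0.70), with sums of 3820 to 4030 CPM and 5810 to 6530 CPM. Col6a3, a chain of type VI collagen, stood at 130, 127, 128 and 139 CPM, against 234, 238, 246 and 248 CPM (−0.88 ± 0.04, adjusted p = 2.92e-07), and Col3a1, of type III collagen, fell by 0.83 ± 0.05 log2. In whole lung Col6a3 changed by 0.43 and Col3a1 by −0.995 log2, with differences of −1.32 and 0.16 (interaction test, adjusted p = 0.000228 and 0.723). Lower members numbered 7 of 14 for smooth muscle and pericytes and 11 of 13 for alveolar type 1 cells. They numbered 12 of 15 for airway cells and 8 of 15 for alveolar type 2 cells, with 1 higher in the last list and 0 in the others. Sums overlapped between the groups for airway cells (4440 to 4980 CPM with propranolol, 4840 to 6640 CPM in controls). They also overlapped for alveolar type 2 cells (5660 to 6210 and 6140 to 6310 CPM). Platelet genes were lower in 4 of 11, and none was higher.

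Genes with the smallest p-values in the intermediate and lung-level classes came from several kinds of cell. Sox13 and Tbx3, both transcription factors, Arap3, a regulator of small GTPases, and Hspa12b, an endothelial member of the HSP70 family, fell by 1.06, 0.94, 0.84 and 1.05 log2, and in whole lung they changed by 0.70 to 1.43. Adamts15, a matrix protease, stood at 13.7, 16.0, 16.6 and 15.7 CPM with propranolol, against 38.8, 39.8, 41.4 and 41.0 CPM in controls (−1.37 ± 0.07, adjusted p = 3.69e-07). Pdzd2 and Tns2 fell by 0.89 and 0.73 log2. On the higher side, Ptk2b, a focal adhesion kinase of leukocytes, rose by 0.66 ± 0.03, Itgb7, an integrin of gut-homing lymphocytes, by 0.73 ± 0.04, Il17ra, the interleukin-17 receptor, by 0.64 ± 0.04 and Mbp by 0.79 ± 0.03 log2. Mbp changed by 0.08 log2 in whole lung, and the difference was 0.70 (adjusted p = 0.000125).

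Melanocyte genes, which mark the B16F10 tumour cells, had a median ratio to lung of 0.415, averaged over both treatments. This ratio does not give their level relative to lung within each treatment, since the change of Pmel differed between the materials, as given below. Of the 16 genes 11 were higher and 2 lower, with a median log2 change of 0.46. With close pairs summed 0 were higher and 2 lower. Pmel, a fibril protein of pigment granules, stood at 1216, 1326, 1742 and 1788 CPM with propranolol, against 1161, 1091, 968 and 935 CPM in controls (0.55 ± 0.12, adjusted p = 0.00632, 0.135 with close pairs summed). The groups did not overlap, but propranolol replicates 1 and 2 were closer to the controls than replicates 3 and 4. In whole lung Pmel changed by −2.12 log2, and the difference between the 2 kinds of material was 2.67 (adjusted p = 0.000868). The 2 lower members were Kit and Edn3, a receptor kinase and a peptide that other lung cells also make.

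**Figure D3:**
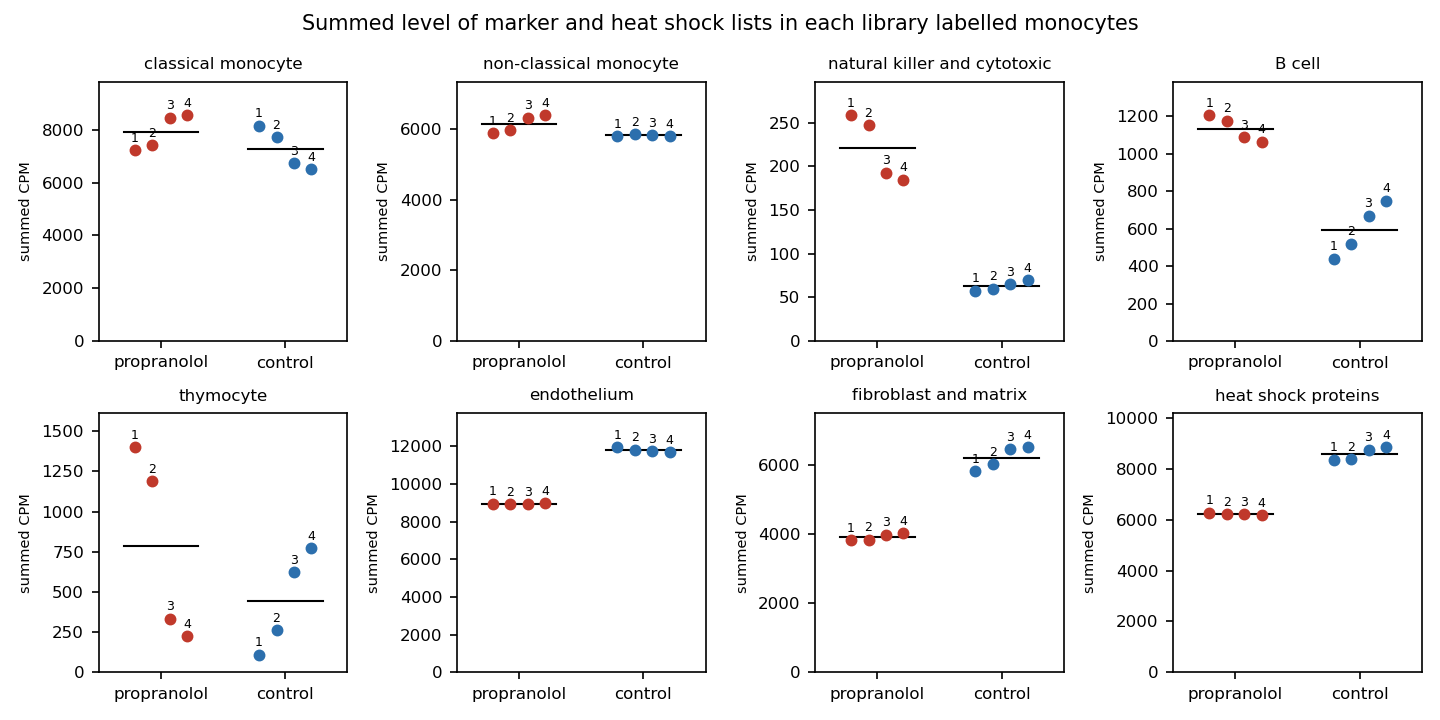
Summed plain CPM (without TMM factors) of 8 marker and stress lists per library, propranolol on the left and control on the right, with a line at the group mean. Natural killer sums lie at 185 to 258 with propranolol and 57.7 to 69.3 in controls, endothelial sums at 8940 to 8970 and 11700 to 12000, and the thymocyte sums of the groups overlap.

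Macrophages and dendritic cells gave a mixed picture. Of the interstitial macrophage list 6 of 19 were lower and 0 higher (median −0.22; 1 lower with close pairs summed). Lyve1, a hyaluronan receptor of perivascular macrophages and of lymphatic endothelium, stood at 238, 236, 228 and 235 CPM with propranolol, against 378, 356, 339 and 333 CPM in controls (−0.59 ± 0.04, adjusted p = 4.46e-06). Stab1, a scavenger receptor, fell by 0.48 ± 0.13 log2 and Pf4, a chemokine of platelets and macrophages, by 0.60 ± 0.14. Alveolar macrophage genes were higher in 9 and lower in 2 of 17 (median 0.30), with Krt79 up by 0.57 ± 0.07 log2. Of 18 dendritic cell genes 7 were higher and 5 lower. Ccr7, which guides migrating dendritic cells and naive T cells to lymph nodes, stood at 141, 136, 132 and 130 CPM, against 92.7, 92.0, 83.6 and 83.5 CPM (0.61 ± 0.05, adjusted p = 5.61e-06). Zbtb46, a factor of conventional dendritic cells and endothelium, stood at 48.3, 48.2, 45.9 and 48.2 CPM, against 78.1, 80.9, 77.2 and 76.5 CPM (−0.71 ± 0.04, adjusted p = 7.74e-07).

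Transcription factors of myeloid cells were higher in 7 and lower in 3 of 22. Klf4, which monocyte development requires and which endothelium also transcribes, stood at 255, 268, 269 and 278 CPM with propranolol, against 472, 462, 447 and 443 CPM in controls, a log2 change of −0.77 ± 0.04 (adjusted p = 4.7e-07, 0.0104 with close pairs summed). Its relative Klf2 fell by 0.49 ± 0.05 log2. Runx1, a factor of early haematopoiesis, rose by 0.24 ± 0.05. Spi1 and Irf5, named after their values were seen, stood at 198 ± 19.1 and 153 ± 15.7 CPM with propranolol and 157 ± 11.1 and 117 ± 10.5 CPM in controls (SD, n = 4 each) and rose by 0.34 and 0.39 log2. Spi1 is the factor PU.1 of myeloid commitment, and Irf5 drives inflammatory cytokine genes.

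Chemokine receptors were higher in 10 and lower in 3 of 21 (median 0.58), 6 and 0 with close pairs summed. Cxcr4, which retains leukocytes in marrow and lung, stood at 226, 221, 235 and 229 CPM, against 171, 175, 177 and 175 CPM (0.38 ± 0.03, adjusted p = 1.29e-05). Cxcr5, a B cell receptor, and Cxcr3, a receptor of effector lymphocytes, rose by 0.86 ± 0.10 and 1.53 ± 0.21 log2. Leukocyte adhesion genes were higher in 11 and lower in 5 of 20, and Icam2, abundant on endothelium, was among the lower ones at −0.43 ± 0.03. Of 10 Fc receptor genes 3 were higher and 1 lower. Fcgr4, the activating receptor of non-classical monocytes, stood at 48.0, 49.5, 55.0 and 59.9 CPM, against 29.1, 28.2, 24.6 and 25.4 CPM (0.99 ± 0.08, adjusted p = 8.17e-06). Among cytokine and growth factor receptors 6 of 23 were higher and 2 lower, with Il10ra, the interleukin-10 receptor, up by 0.54 ± 0.07 and Tnfrsf1b, a receptor for tumour necrosis factor, up by 0.48 ± 0.07 log2. Il1r1, the interleukin-1 receptor, fell by 0.50 ± 0.06.

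Pattern recognition receptors were higher in 5 and lower in 2 of 25, and phagocytosis and scavenger genes in 3 and 8 of 27. Complement genes were higher in 2 and lower in 4 of 19, and lysosomal genes in 2 and 0 of 29. Of these lists, 2 genes in all passed with close pairs summed. Over all tested genes 14.3% were higher and 16.1% lower, or 1.98% and 4.69% with close pairs summed. Chemokine ligands were higher in 4 and lower in 7 of 27, with Cxcl10, a target of interferon-γ, at 79.6, 75.0, 62.4 and 57.3 CPM with propranolol, against 49.97, 46.6, 42.4 and 42.0 CPM in controls (0.60 ± 0.10, adjusted p = 0.00118, 0.0524 with close pairs summed). Inflammatory cytokine and NF-κB genes were higher in 6 and lower in 4 of 27, with a median of 0.04. The NF-κB subunits Relb and Nfkb2 and the co-factor Bcl3 rose by 0.34, 0.20 and 0.26 log2. Il1b, named after its values were seen, stood at 519 ± 28.7 CPM with propranolol and 591 ± 22.3 CPM in controls (−0.19 ± 0.05, adjusted p = 0.0121, 0.252 with close pairs summed), and Il6 at 49.2 ± 0.501 and 51.6 ± 3.11 CPM did not pass (adjusted p = 0.331). Inflammasome genes were higher in 10 and lower in 3 of 16, with the DNA sensor Aim2 up by 0.60 ± 0.08 and the inflammatory caspase Casp4 up by 0.38 ± 0.07 log2, while Nlrp3, also named after its values were seen, fell by 0.31 ± 0.07.

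**Figure D4:**
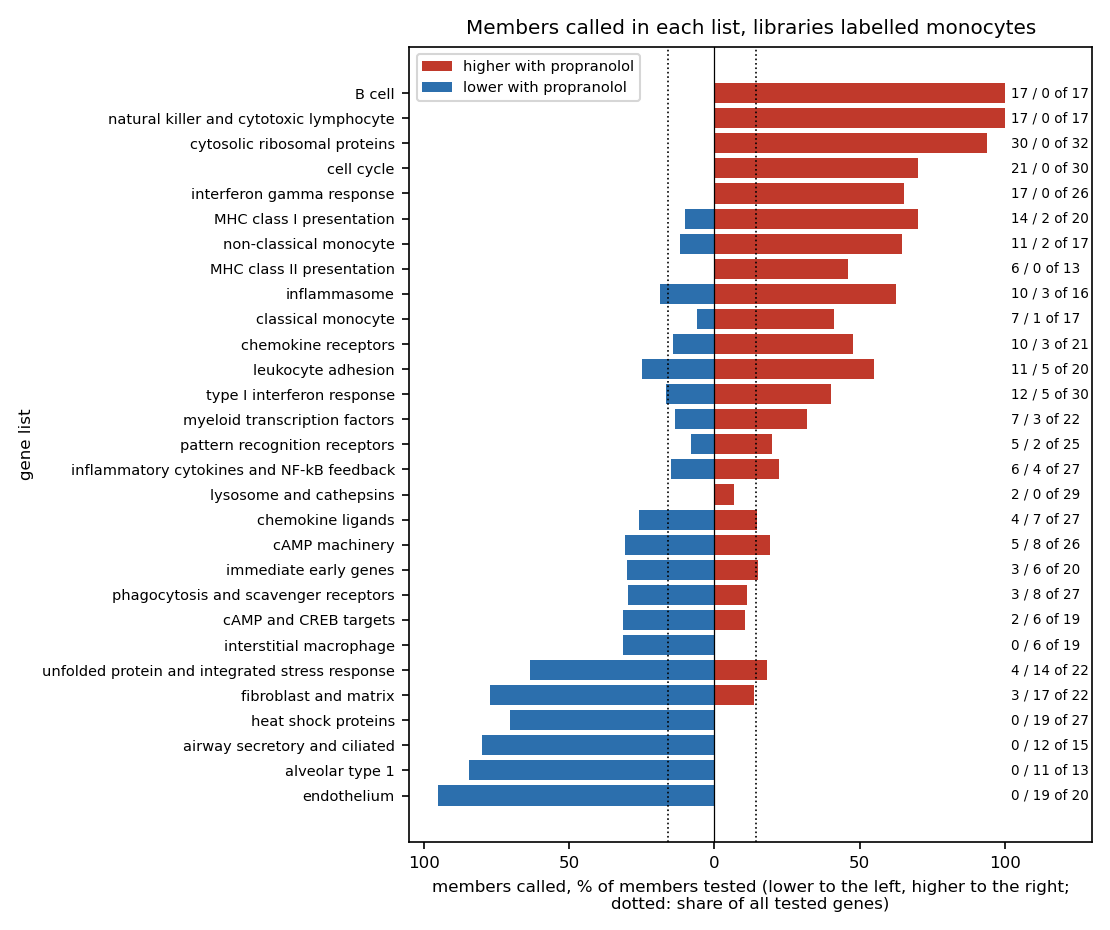
Percent of tested members called higher or lower with propranolol for 29 lists, with dotted lines at the share of all tested genes called in each direction (14.3% and 16.1%). Natural killer and B cell lists reach 17 of 17 on the higher side, and endothelium reaches 19 of 20 on the lower side.

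Interferon-γ response genes were higher in 17 and lower in 0 of 26 (median 0.52), 8 and 0 with close pairs summed, and their sum was 2440 to 3260 CPM with propranolol and 2110 to 2180 CPM in controls. Tap1, a peptide transporter for MHC class I loading, stood at 248, 242, 207 and 196 CPM with propranolol, against 145, 153, 161 and 159 CPM in controls (0.53 ± 0.07, adjusted p = 0.000293). Ido1, which degrades tryptophan, stood at 4.86, 7.63, 3.80 and 3.58 CPM, against 1.46, 1.86, 1.77 and 1.61 CPM (1.57 ± 0.24). All treated libraries were above all controls for both genes. MHC class I genes were higher in 14 and lower in 2 of 20, with H2-K1 up by 0.34 ± 0.04 and its regulator Nlrc5 up by 0.41 ± 0.05 log2. MHC class II genes were higher in 6 and lower in 0 of 13. The largest of these changes, among the 4 members named by rule, were in H2-Ob, H2-Oa and H2-Eb2 (1.09, 1.07 and 1.06 log2), of which the H2-O chains are made mainly by B cells, whose summed level was 1070 to 1210 CPM with propranolol and 440 to 750 CPM in controls. Type I interferon response genes were higher in 12 and lower in 5 of 30, with Zbp1 up by 0.70 ± 0.08 and Stat2 down at −0.24 ± 0.04 log2.

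Promoters of the interferon-γ list were searched for the gamma-activated site TTCNNNGAA on both strands, in windows of 300 bases that reach from upstream of the transcription start to shortly after it (RefSeq, GRCm38.p6). It occurred in 8 of 18 tested members with a window and in 5 of 14 that were called. Counted in the same way, by gene with a match in any window, the share was 9.6% of 26742 genes. By window it was 8.33% of all 32544 windows. The windows of Irf8, a factor of monocyte and dendritic cell identity (chr8:120736108-120736407, plus strand), and of Gbp5, a guanylate-binding protein (chr3:142496684-142496983, plus strand), are shown as the called members with 2 matches, in capitals. Gbp7, which was not called, holds 2 matches as well. Irf8 stood at 140, 135, 123 and 123 CPM with propranolol, against 76.4, 84.3, 88.0 and 86.5 CPM in controls. Gbp5, named after its values were seen and belonging to a family of similar copies, averaged 63.8 ± 14.1 CPM with propranolol and 34.3 ± 1.46 CPM in controls (SD, n = 4 each). A match describes the letters of the window only.
Irf8: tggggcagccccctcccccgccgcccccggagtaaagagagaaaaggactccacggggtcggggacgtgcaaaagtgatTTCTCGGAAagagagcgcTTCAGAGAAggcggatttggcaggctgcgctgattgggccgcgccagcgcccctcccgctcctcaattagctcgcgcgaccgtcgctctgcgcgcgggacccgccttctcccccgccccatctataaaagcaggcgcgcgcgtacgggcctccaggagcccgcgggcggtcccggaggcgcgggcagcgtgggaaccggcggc
Gbp5: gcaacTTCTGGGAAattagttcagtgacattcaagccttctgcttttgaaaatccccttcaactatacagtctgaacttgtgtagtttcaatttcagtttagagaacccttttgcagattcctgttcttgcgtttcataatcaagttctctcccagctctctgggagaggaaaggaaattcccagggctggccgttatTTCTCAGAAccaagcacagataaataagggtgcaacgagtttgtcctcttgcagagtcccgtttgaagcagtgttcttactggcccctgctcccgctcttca

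The β-adrenoceptor genes Adrb1 and Adrb3 were lower in the sorted libraries of treated mice. Adrb1, the subtype best known from the heart, stood at 39.4, 38.3, 39.3 and 39.6 CPM with propranolol, against 73.3, 73.2, 73.6 and 67.0 CPM in controls, a log2 change of −0.87 ± 0.04 (adjusted p = 4.84e-07, 0.0103 with close pairs summed). Adrb3, the subtype of fat tissue, was low, at 2.07, 2.66, 2.35 and 3.02 CPM with propranolol, against 3.60, 3.12, 5.58 and 6.74 CPM in controls (−0.92 ± 0.24, adjusted p = 0.0149, 0.142 with close pairs summed). The groups did not overlap for either gene. The ratios to lung were 1.12 and 0.595, so neither was in the sort-enriched class. They moved beside the endothelial genes, whose sums were 8940 to 8970 CPM with propranolol and 11700 to 12000 CPM in controls, and the part of those cells was not tested. In whole lung the genes changed by 1.27 and 1.78 log2, and the monocyte minus lung differences were −2.15 ± 0.40 and −2.71 ± 0.52 (SE, adjusted p = 0.000265 and 0.00033).

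Downstream of the receptors, 5 of 26 genes of the cyclic AMP machinery were higher and 8 lower. Adcy4, an adenylyl cyclase of endothelium, stood at 146, 139, 158 and 156 CPM with propranolol, against 235, 235, 236 and 238 CPM in controls (−0.66 ± 0.04, adjusted p = 2.17e-06). Arrb1, the arrestin that uncouples β-adrenoceptors, fell by 0.39 ± 0.04 log2. Pde3b, a phosphodiesterase that breaks down cyclic AMP, rose by 0.64 ± 0.08 and the receptor kinase Grk6 by 0.39 ± 0.05. Of 19 genes known as targets of cyclic AMP and CREB 6 were lower and 2 higher, beside 16.1% and 14.3% of all tested genes. Their median log2 change was −0.03, and none passed with close pairs summed. Among the lower ones were Nr4a2, an orphan nuclear receptor (−0.25 ± 0.04), Pde4b, a feedback phosphodiesterase (−0.21 ± 0.03), and Per1, a clock gene induced by cyclic AMP (−0.25 ± 0.04).

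Immediate early genes were strongly represented in the sorted libraries, with 16 of 20 in the sort-enriched class, and 6 were lower and 3 higher. Dusp1, the phosphatase that switches off stress kinases, stood at 777, 798, 794 and 798 CPM with propranolol, against 976, 981, 1003 and 983 CPM in controls, a log2 change of −0.32 ± 0.03 (adjusted p = 3.64e-05, 0.0613 with close pairs summed). All treated libraries were below all controls. In whole lung Dusp1 changed by 0.75 log2, a difference of −1.07 (adjusted p = 4.78e-05). Dusp2, a related phosphatase of activated leukocytes, stood at 84.1, 83.0, 82.5 and 83.7 CPM, against 53.3, 55.0, 63.0 and 60.1 CPM (0.53 ± 0.05). Fos and Egr1, named after their values were seen, averaged 813 ± 5.50 and 792 ± 54.5 CPM with propranolol and 886 ± 29.9 and 842 ± 16.7 CPM in controls, and Fos passed (adjusted p = 0.0241) while Egr1 did not (adjusted p = 0.205). The cyclic AMP response element TGACGTCA was searched on both strands. It occurred in the promoter windows of Dusp1 and Btg2, 2 of 16 immediate early genes with a window. The share was 2.05% of all genes with a window and 1.8% of all windows. The window of Dusp1 (chr17:26508423-26508722, minus strand, same source) is shown as the called gene with a match, which is in capitals.
Dusp1: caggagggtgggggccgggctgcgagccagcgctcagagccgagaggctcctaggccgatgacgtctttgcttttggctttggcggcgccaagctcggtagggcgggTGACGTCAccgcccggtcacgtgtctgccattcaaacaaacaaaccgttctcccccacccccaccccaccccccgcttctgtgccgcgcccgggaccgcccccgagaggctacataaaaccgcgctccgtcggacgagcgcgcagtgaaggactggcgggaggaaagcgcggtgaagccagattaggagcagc

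Heat shock genes were lower as a group. Of 27 members 19 were lower and 0 higher, with a median log2 change of −0.38 against 0.02 over all genes, and 14 were lower with close pairs summed. Their summed level was 6170 to 6270 CPM with propranolol and 8350 to 8850 CPM in controls, and 18 of the 27 did not overlap between the groups with propranolol lower, as did 16.8% of all tested genes. Hsph1, a nucleotide exchange factor for HSP70, stood at 77.1, 77.4, 77.5 and 78.0 CPM with propranolol, against 214, 220, 224 and 229 CPM in controls, a log2 change of −1.51 ± 0.04 (adjusted p = 4.12e-09). Hspb1, a small heat shock protein that holds unfolding proteins, stood at 74.3, 75.3, 73.5 and 71.5 CPM, against 143, 156, 173 and 169 CPM (−1.12 ± 0.06, adjusted p = 4.84e-07). Treated libraries varied little in either gene, and the groups were far apart.

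Co-chaperones followed. Dnaja1, which hands clients to HSP70, stood at 122, 123, 114 and 111 CPM with propranolol, against 202, 203, 217 and 213 CPM (−0.83 ± 0.04). Stip1, the bridge from HSP70 to HSP90, fell by 0.71 ± 0.03 log2, Chordc1, an HSP90 co-chaperone, by 0.73 ± 0.06, Ahsa1, the activator of the HSP90 ATPase, by 0.47 ± 0.04 and Cacybp by 0.52 ± 0.05. Of the main cytosolic chaperones, Hspa8 fell by 0.57 ± 0.04, Hsp90ab1 by 0.53 ± 0.04 and Hsp90aa1 by 0.38 ± 0.04. The stress-inducible HSP70 genes did not pass. Hspa1a stood at 137, 138, 106 and 107 CPM, against 103, 111, 141 and 149 CPM (−0.05 ± 0.13, adjusted p = 0.822), with the groups overlapping and the same replicates high as for the thymocyte genes. Hspa1b (−0.25 ± 0.14), Dnajb1 (−0.10 ± 0.12), Hspe1, Cryab, Hsf2, Hspa4 and Dnajb6 also did not pass. Hspa1a and Hspa1b are near-identical copies and their reads cannot be told apart with certainty.

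The members Serpinh1, P4ha1 and P4ha2 belong to collagen folding in the endoplasmic reticulum and were lower beside the fibroblast and matrix genes, whose sums were 3820 to 4030 CPM with propranolol and 5810 to 6530 CPM in controls. Serpinh1, the collagen chaperone, fell by 0.88 ± 0.07 log2, and the prolyl hydroxylase subunits P4ha1 and P4ha2 fell by 0.81 ± 0.05 and 1.21 ± 0.09. Ratios to lung of the heat shock list had a median of 1, with 2 sort-enriched, 12 intermediate and 13 lung-level members, so the libraries do not tell which cells carried the change. In whole lung Hsph1 changed by −1.66 log2 and Dnaja1 by −0.82, and the differences from the monocyte change were 0.14 and −0.01 (adjusted p = 0.48 and 0.919). Hsp90aa1 and Hspd1 changed by −1.92 and −1.62 log2 in lung, and their differences of 1.53 and 1.40 passed (adjusted p = 0.000267 and 0.00192).

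The heat shock element was searched on both strands as GAANNTTC. It occurred in 11 of 22 tested members with a window (50%) and in 7 of 15 called members (46.7%). The share was 9.08% of all genes with a window and 7.89% of all windows. Windows of 3 called members are shown with the matches in capitals: Hsph1 with 1 match at the downstream end of the window (chr5:149636287-149636586, minus strand), and Hspb1 (chr5:135887669-135887968, plus strand) and Chordc1 (chr9:18292017-18292316, plus strand) with 2 matches each (RefSeq, GRCm38.p6). The uncalled Hspa1a and Hspa1b hold matches as well.
Hsph1: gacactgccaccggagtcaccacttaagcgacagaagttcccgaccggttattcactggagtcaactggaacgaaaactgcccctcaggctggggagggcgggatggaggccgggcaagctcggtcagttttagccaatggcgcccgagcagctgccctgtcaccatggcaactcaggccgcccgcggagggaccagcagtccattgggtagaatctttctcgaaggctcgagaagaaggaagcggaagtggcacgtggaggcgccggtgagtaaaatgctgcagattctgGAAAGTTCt
Hspb1: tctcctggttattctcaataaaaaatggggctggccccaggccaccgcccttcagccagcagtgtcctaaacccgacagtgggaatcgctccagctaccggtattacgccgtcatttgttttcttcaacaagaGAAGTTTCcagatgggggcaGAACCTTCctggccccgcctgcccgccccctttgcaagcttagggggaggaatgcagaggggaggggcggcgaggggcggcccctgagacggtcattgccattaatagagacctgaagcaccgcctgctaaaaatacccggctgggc
Chordc1: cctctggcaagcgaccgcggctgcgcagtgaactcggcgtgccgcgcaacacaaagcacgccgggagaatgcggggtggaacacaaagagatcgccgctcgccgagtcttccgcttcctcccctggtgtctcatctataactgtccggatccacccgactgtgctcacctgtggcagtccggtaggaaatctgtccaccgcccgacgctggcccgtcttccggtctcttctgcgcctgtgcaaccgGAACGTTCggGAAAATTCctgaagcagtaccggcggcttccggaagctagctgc

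The unfolded protein and integrated stress list was lower in 14 and higher in 4 of 22 (median −0.39), 9 and 1 with close pairs summed, and summed to 5170 to 5480 CPM with propranolol and 6770 to 7030 CPM in controls. Hspa5, the chaperone BiP of the endoplasmic reticulum, stood at 818, 841, 907 and 924 CPM, against 1579, 1536, 1446 and 1451 CPM in controls (−0.79 ± 0.05, adjusted p = 1.64e-06). Creld2 stood at 44.98, 49.3, 51.5 and 54.8 CPM, against 86.1, 87.6, 89.4 and 83.2 CPM (−0.79 ± 0.06), and Manf, a secreted stress factor, at 81.2, 76.1, 86.9 and 85.8 CPM, against 136, 141, 134 and 132 CPM (−0.72 ± 0.05). The groups did not overlap for any of these genes. Herpud1, of protein degradation, fell by 0.39 ± 0.04 log2. Among the members that rose, Chac1, named after its values were seen, stood at 7.86 ± 1.37 CPM with propranolol and 4.78 ± 0.197 CPM in controls.

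**Figure D5:**
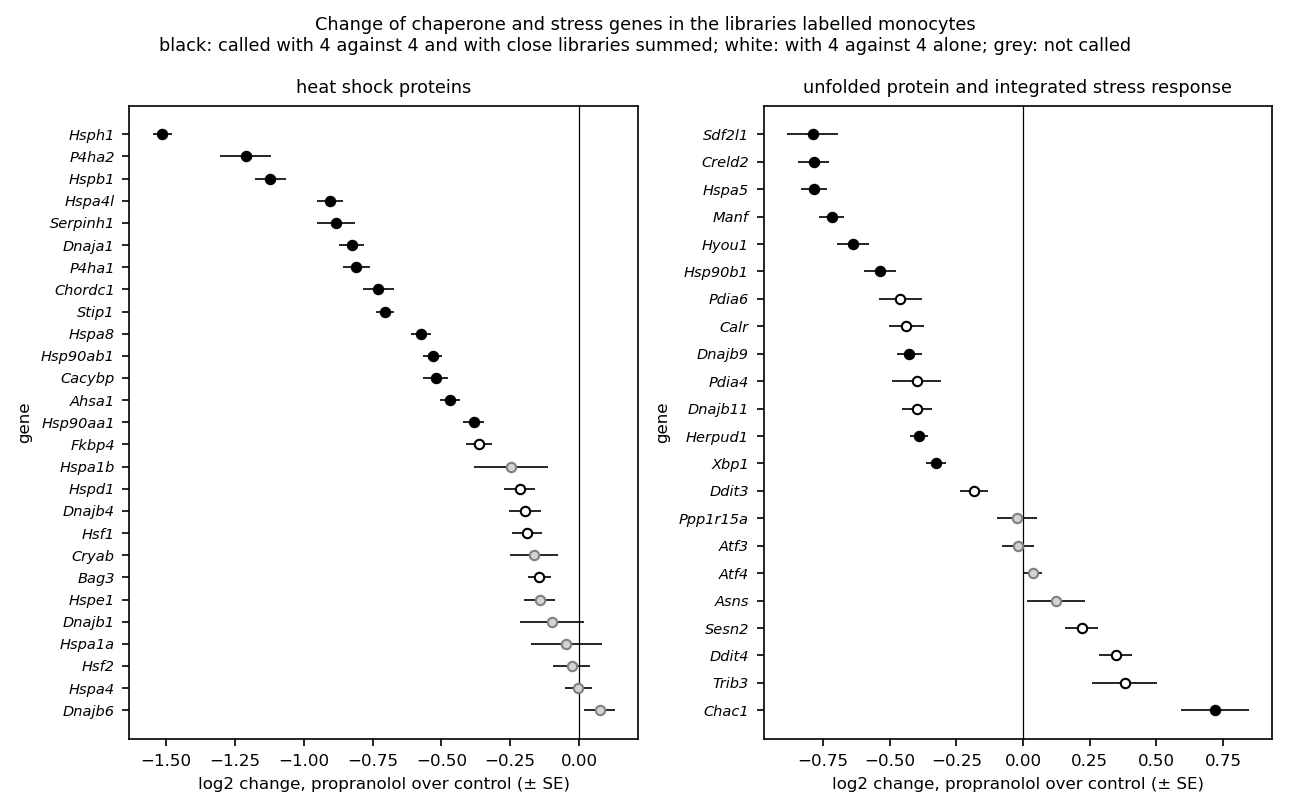
Log2 change with propranolol over control, with its SE, for each tested member of the heat shock list and of the unfolded protein list; black points were called in both the 4 against 4 and the summed pairs comparison, white points in the first alone, grey points in neither. Of the heat shock list 19 of 27 members are called and all of those lie below 0, with Hsph1 lowest at −1.51.

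Glucocorticoid response genes were lower in 7 and higher in 1 of 18. Zbtb16 stood at 26.0, 29.5, 38.0 and 38.4 CPM with propranolol, against 60.9, 62.8, 66.9 and 60.2 CPM in controls (−0.93 ± 0.11, adjusted p = 0.000128), and Klf9 and Sgk1 fell by 0.50 ± 0.04 and 0.42 ± 0.06 log2. Clock genes were lower in 6 and higher in 3 of 19. Ciart, a repressor in the clock loop, stood at 6.10, 6.29, 6.71 and 6.42 CPM, against 16.3, 15.5, 21.4 and 20.1 CPM (−1.52 ± 0.11, adjusted p = 3.21e-06), and changed by 1.59 log2 in whole lung, a difference of −3.12 (adjusted p = 7.26e-07).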

How the data were processed

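Polyadenylated RNA of monocytes sorted from lung and of whole lung was sequenced from NEBNext libraries on a NovaSeq instrument, per the labels' protocols. Raw read counts per gene, as whole numbers, are what the authors deposited. STAR 2.7.9, featureCounts, Subread 2.0.3 and the build GRCm39 are named in the submitters' processing notes. The sources used here do not give the strand setting of the counting. Genes that overlap, have an antisense partner or have near-identical copies are therefore uncertain. Of 55416 gene identifiers 52083 (94.0%) carry a symbol. Gene positions are not given, and promoter sequences are from RefSeq on GRCm38.p6. The CD4 T cell libraries of the series were not used here.

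Groups came from the labels. Genes were kept by filterByExpr (minimum count 10) in the 8 monocyte libraries, scaled by TMM and fitted in edgeR 4.0.16 (R 4.3.3) with its quasi-likelihood method, with Benjamini-Hochberg adjustment over all tested genes. Adjusted p-values under 0.05 were called. Each log2 change is the propranolol over the control level, with its standard error (SE). A gene's ratio to lung is its mean plain CPM over the monocyte group means divided by that over the lung group means. The difference of the changes in monocyte and lung libraries was tested as an interaction in 1 fit of the 18 libraries. Described lists (49, and 5 added after the data had been seen) hold 906 genes, of which 889 were tested.

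The comparison, the lists and the rule for named genes were chosen with earlier results of these data known. The rule named the monocyte marker genes Csf1r, Cd14 and Ccr2 and the β-adrenoceptors. Per class and direction it named the 5 called genes with the smallest p that averaged 1 CPM or more. Predicted loci and antigen receptor segments were left out of these. Per list it named up to 4 called members, or up to 2 where none was called. It also named all heat shock members. A few genes picked this way are left out. Alternatives were the size factors and the test of DESeq2 1.42.0, limma-voom (limma 3.58.1), other filters on low counts (none, or a mean of at least 5 CPM), other class limits (8 and 0.5) and classes from 1 treatment, scaling on sort-enriched genes, lung and monocyte libraries in 1 fit, a replicate block, and leaving out each library. Summing close pairs and a thymocyte covariate were added later. The scripts were tested on simulated counts. With these total counts, sampling noise weighs most on the lowest genes. It was not compared with the spread between libraries gene by gene.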

Additional observations from a re-analysis of the deposited data

Results flagged for a closer look

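Of the 442 groups of 4 libraries checked for the 221 named genes, 13 held a library set apart from the other 3, where chance gives about 1 in 20. In controls these were 67.04 CPM for Adrb1, 0.7433 CPM for Cxcr3, 45.71 CPM for Hmga1 and 104.8 CPM for Il17ra. With propranolol they were 15.38 CPM for Aim2, 0.1791 CPM for Chga, 317.3 CPM for Cxcl12, 238.8 CPM for Cxcl2, 23.5 CPM for Foxj1, 137.1 CPM for Itgb7, 927.2 CPM for Rpl8, 45.94 CPM for Zbtb46 and 9.882 CPM for Zc3h6. In each of these genes the propranolol and control libraries did not overlap.

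The change with propranolol differed between monocyte and whole lung libraries, by the test of the difference itself, for 10 of the markers, adrenoceptors and sort-enriched genes named. As monocyte minus lung change on the log2 scale, the difference was −2.15 for Adrb1 and −2.71 for Adrb3. It was −1.96 for Ccr2 and −0.73 for Csf1r. It was −2.26 for Cd209a, −1.07 for Dusp1, −1.57 for Lilr4b and −1.44 for Nfkbiz among genes that fell in the monocyte libraries. It was −0.87 for Itgal and 0.83 for Smpdl3b among those that rose. Over all 20328 genes in that fit 57.4% differed.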

How the results depend on the processing

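The count of changed genes was 5552 with DESeq2 size factors, 6078 with its test, 5523 with limma-voom, 5227 with no filter and 4977 with a mean of at least 5 CPM, against 5553 as reported. It was 3544 with a replicate block (113 sort-enriched, 1921 lung-level), 2069 with lung and monocyte libraries in 1 fit (52 sort-enriched, 944 intermediate, 1073 lung-level) and 1377 with close pairs summed (47, 714 and 616). Scaling on sort-enriched genes gave 3944, split 872 higher and 3072 lower, with intermediate genes at 466 and 1099 and lung-level genes at 330 and 1909. The thymocyte covariate called 306 sort-enriched genes and turned Rag1 to −0.207 log2, since it removes the mean level of the list that holds Rag1. Class limits of 8 and 0.5 gave 50 sort-enriched (22 higher, 28 lower of 260), 4936 intermediate and 567 lung-level calls. Classes from untreated libraries gave 394 sort-enriched calls and lung-level calls of 1596 higher and 1046 lower, the opposite split to that reported; classes from treated libraries gave 797 and 2307. Leaving out each library gave 4414 to 5113 changed genes, 145 to 181 sort-enriched, 1771 to 2030 intermediate and 2498 to 2902 lung-level. The difference between monocyte and lung changes was called for 11673 genes, 11085 to 11469 with a library left out, 8686 with at least 5 CPM and 9020 with close pairs summed, where 5166 were more positive and 3854 more negative in monocyte libraries, against 5115 and 6558 as reported. Apart from the restrictions built into the filters and the summed libraries, the cause was not tested.

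Of 221 named genes, 203 were called as reported. With close pairs summed 69 no longer passed, with a replicate block 17, in 1 fit with lung 93 and with scaling on sort-enriched genes 27. Leaving out 1 library ended 3 to 8 of these calls. Rag1 was the only named gene whose direction turned, under the thymocyte covariate. Same-numbered libraries of the 2 groups deviated in opposite directions (correlations of −0.481, −0.26, −0.317 and −0.464). Replicates 1 and 2 split from 3 and 4 within each group, so these values are not separate checks. They cannot show whether same-numbered libraries were prepared together, and the replicate block is given for completeness. Precision is limited by 4 libraries a group that form 2 close pairs and by the unknown source of those pairs. Lung-level genes hold much of each library, and which cells their transcripts came from was not tested.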

Other observations

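Genes of basic cell functions moved in the sorted libraries as well. Cytosolic ribosomal protein genes were higher in 30 and lower in 0 of 32 (median log2 change 0.31), 8 and 0 with close pairs summed, with Rpl13 at 457, 452, 422 and 432 CPM with propranolol, against 323, 324, 334 and 344 CPM in controls. Such genes have many near-identical copies. Nuclear genes of oxidative phosphorylation were higher in 13 and lower in 0 of 24, and 0 passed with close pairs summed (edgeR's quasi-likelihood test). Atp5a1, a subunit of ATP synthase, rose by 0.16 ± 0.03 log2. Cell cycle genes were higher in 21 and lower in 0 of 30 (median 0.34), 2 and 0 with close pairs summed. Ccnb1, the mitotic cyclin, stood at 27.9, 27.4, 26.7 and 26.3 CPM with propranolol, against 18.8, 20.2, 21.4 and 20.3 CPM in controls, and in whole lung it changed by −1.63 log2, a difference of 2.05 (SE 0.52, adjusted p = 0.00265). Dividing thymocytes, melanoma cells and lymphocytes all carry these transcripts, and their part was not tested. Glycolysis genes were higher in 3 and lower in 2 of 24, and cholesterol genes higher in 4 and lower in 3 of 24. Over all tested genes 14.3% were higher and 16.1% lower.

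Among genes of macrophage suppression and alternative activation, 9 were higher and 6 lower of 27. Chil3, a chitinase-like protein of alternatively activated macrophages, stood at 464, 455, 440 and 435 CPM with propranolol, against 342, 295, 243 and 231 CPM in controls (0.69 ± 0.10, adjusted p = 0.000539, 0.043 with close pairs summed). Arg1, named after its values were seen, averaged 28.6 ± 15.9 CPM with propranolol and 79.4 ± 13.8 CPM in controls (SD, n = 4 each, −1.47 ± 0.34, adjusted p = 0.00785, 0.12 with close pairs summed). Vegfa, a growth factor for vessels that alveolar type 1 cells make, stood at 334, 340, 338 and 338 CPM, against 470, 482, 513 and 506 CPM (−0.55 ± 0.04, adjusted p = 2.39e-06). Neutrophil genes were higher in 1 and lower in 4 of 17, beside 14.3% and 16.1% of all tested genes. Ngp, a granule protein of immature neutrophils, stood at 22.9, 18.7, 10.4 and 9.34 CPM, against 19.7, 33.7, 80.6 and 91.9 CPM (−1.89 ± 0.46, adjusted p = 0.00999, 0.115 with close pairs summed), and the groups overlapped. Plasma cell genes were higher in 5 and lower in 1 of 9, with Igha at 238, 222, 129 and 116 CPM, against 42.3, 44.8, 51.2 and 51.6 CPM. Of 8 erythroid genes 0 passed, with edgeR's quasi-likelihood test and with close pairs summed.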
